A study of Homo sapiens with 83 samples.

Results

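The BCL2 family apoptosis regulators described here are 10 genes, taken by their symbols from the 60237 genes of the deposited expression table: BCL2, BCL2L1 and MCL1, which block cell death, BAX and BAK1, which carry it out, and BCL2L11, PMAIP1, BBC3, BID and BAD, which trigger it. They were measured in 83 RNA-seq libraries. The cells were SHEP and SKNAS, 2 lines of human neuroblastoma, both engineered to overexpress N-MYC-ER, a fusion of the N-MYC oncoprotein to an estrogen receptor domain that becomes active when 4-hydroxytamoxifen (4OHT) binds it. In each line, MYC-OFF cells were given ethanol as vehicle and MYC-ON cells were given 4OHT, and every culture of both conditions also received dexamethasone, a glucocorticoid used to set the circadian clock. RNA was collected every 4 h of circadian time (CT), counted in hours from dexamethasone, between CT24 and CT76. SHEP was followed in 2 replicate time series per condition (28 MYC-OFF and 28 MYC-ON libraries), and SKNAS in 1 time series per condition (14 MYC-OFF libraries, and 13 MYC-ON libraries ending at CT72). No cultures without dexamethasone were part of these comparisons, and no parental cells without N-MYC-ER, so an effect of 4OHT itself cannot be told apart from that of N-MYC-ER.

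The BCL2 family controls the mitochondrial route of apoptosis. The anti-apoptotic proteins BCL2, BCL-XL (from BCL2L1) and MCL1 bind and hold their pro-apoptotic relatives, the effectors BAX and BAK (from BAK1) open pores in the outer mitochondrial membrane through which cytochrome c escapes, and the BH3-only proteins BIM (from BCL2L11), NOXA (from PMAIP1), PUMA (from BBC3), BID and BAD carry stress and survival signals to both groups. MYC proteins are known to lower the threshold for apoptosis, and several neuroblastomas are known to depend on BCL2 or MCL1 for survival. Many of these proteins are also controlled after transcription, MCL1 and NOXA by rapid turnover and BAD by phosphorylation, so mRNA levels describe only part of the balance.

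Levels are transcripts per 1000000 transcripts (TPM), a scale corrected for transcript length and therefore comparable between genes of 1 library. Each library summed to 1000000, and the depth of each library is not given in the sources used here, which name only an average over libraries. A rise in 1 gene is therefore a rise in its share of the mRNA. In RNA from a whole culture, less RNA per cell and fewer cells with the transcript cannot be told apart. Genes above 0 numbered 21726 to 22839 in the SHEP MYC-OFF and 21783 to 25484 in the SHEP MYC-ON libraries. The SHEP libraries were alike in their median of log2(TPM + 1) over the genes tested, which lay between 3.929 and 4.166. The SKNAS libraries were not: their medians ran from 2.755 to 4.383, 10 of 14 MYC-OFF libraries but only 3 of 13 MYC-ON libraries reached 3.8, and the MYC-OFF library of CT56 had the fewest genes above 0 (16241). The SKNAS results are therefore also given with the library median as a covariate, after median-of-ratios rescaling, and for libraries with a median of at least 3.3 (11 MYC-OFF, 9 MYC-ON) or 3.8. MYCN, which counts the fusion and the endogenous gene together, averaged 555 ± 70.8 TPM in SHEP MYC-OFF and 377 ± 69.5 TPM in SHEP MYC-ON (SD, n = 28 each), and 547 ± 341 and 365 ± 297 TPM in the SKNAS groups. Because 4OHT acts on the protein, this level does not check activation. PHOX2A, a marker of adrenergic neuroblastoma, averaged 232 ± 34.7 TPM in SKNAS MYC-OFF and 66.7 ± 24.7 TPM in SKNAS MYC-ON, with no overlap, and was nearly absent from SHEP. Of 7 adrenergic markers 4 could be tested in SKNAS and all 4 were lower in MYC-ON cells, and the sum over the 7 was 245 to 564 TPM in MYC-OFF and 75.7 to 232 TPM in MYC-ON libraries. In SHEP that sum was 27.1 to 43.2 and 36.7 to 54.2 TPM. Of 7 mesenchymal markers 2 were higher and 3 lower in SHEP and 1 was higher and 2 lower in SKNAS. The markers thus moved with the condition in SKNAS, and their part in the SKNAS results below was not tested.

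Of the 10 genes, 9 had at least 1 promoter window in RefSeq (250 bases before to 50 after an annotated start, GRCh38.p14), MCL1 being the exception. The letters of the canonical E-box, CACGTG, which MYC and clock factors are known to bind and which reads alike on both strands, occurred in windows of 3 members, BAX, BBC3 and BID, against 8.77% of the 27305 genes with a window (7.26% of all 35116 windows). TGACGT, the core of the ATF/CREB site searched on both strands, occurred in windows of PMAIP1 and BAD, against 9.64% of genes (7.98% of windows). Looser or other motifs were as follows among the 9: CANNTG, of which CACGTG is a special case, in 4 (73.1% of genes), CACGCG in 1 (13.5%), CATGTG in 1 (13.4%), GGGCGG in 7 (48.3%) and the full palindrome TGACGTCA in none (2.25%). A match is only a run of letters, and no binding was measured. The stretches before the first exon are shown for BAX, BBC3 and PMAIP1, with the matched letters in capitals. BAX and BBC3 were picked by result, as E-box members called between MYC-ON and MYC-OFF levels in at least 1 line below. BID, the other E-box member, was called there in neither line and is not shown.
BAX, chr19:48954625-48954814, plus strand: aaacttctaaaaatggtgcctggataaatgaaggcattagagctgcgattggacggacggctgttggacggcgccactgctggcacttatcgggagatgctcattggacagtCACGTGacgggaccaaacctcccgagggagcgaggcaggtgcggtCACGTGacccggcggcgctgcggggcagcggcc
BBC3, chr19:47232767-47232917, minus strand: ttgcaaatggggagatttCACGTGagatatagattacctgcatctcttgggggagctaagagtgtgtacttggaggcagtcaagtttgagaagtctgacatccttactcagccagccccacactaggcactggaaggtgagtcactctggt
PMAIP1, chr18:59899746-59899995, plus strand: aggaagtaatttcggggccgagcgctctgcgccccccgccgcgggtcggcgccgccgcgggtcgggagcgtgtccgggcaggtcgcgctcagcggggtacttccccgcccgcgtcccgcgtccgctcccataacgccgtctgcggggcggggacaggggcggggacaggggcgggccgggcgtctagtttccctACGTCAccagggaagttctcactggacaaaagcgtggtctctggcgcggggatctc

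The BAX window held 4 copies of CACGTG, 2 in the stretch shown and 2 in the part that overlaps the first exon, and only 5 of the 35116 windows (0.0142%) held 4 or more. The BBC3 copy lay 232 to 227 bases before the annotated start, and the PMAIP1 match, ACGTCA on the plus strand, lay 56 to 51 bases before it. The BAD match fell 54 to 49 bases before 1 start, in a region that also holds exons of the neighboring gene GPR137.

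BAX was the most abundant of the 10 mRNAs and BCL2 the least abundant in all 4 groups, by their medians. In SHEP MYC-OFF the medians fell from BAX (397 TPM) through BCL2L1 (135), PMAIP1 (134), MCL1 (115), BID (104), BAD (78.2), BAK1 (26.8), BBC3 (22.6) and BCL2L11 (6.67) to BCL2 (1.97). Every one of the 28 libraries had BAX above BCL2L1 and BAD above BAK1 with no overlap of the ranges, but BCL2L1 exceeded PMAIP1 in only 18 of 28 libraries, so those neighbors were not separated. In SHEP MYC-ON, BAD fell to a median of 37.2 TPM, next to BBC3 (33.2 TPM), which it exceeded in 17 of 28 libraries. In SKNAS the order differed: MCL1 (116 TPM) and BAD (83.8) followed BAX (185 TPM) in MYC-OFF cells, and MCL1 exceeded BAD in 9 of 14 libraries. In SKNAS MYC-ON, BAX (286 TPM) stood above BAD (76.1 TPM) in all 13 libraries without overlap, while BCL2L1 dropped to the seventh place at 17.0 TPM.

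**Figure D1:**
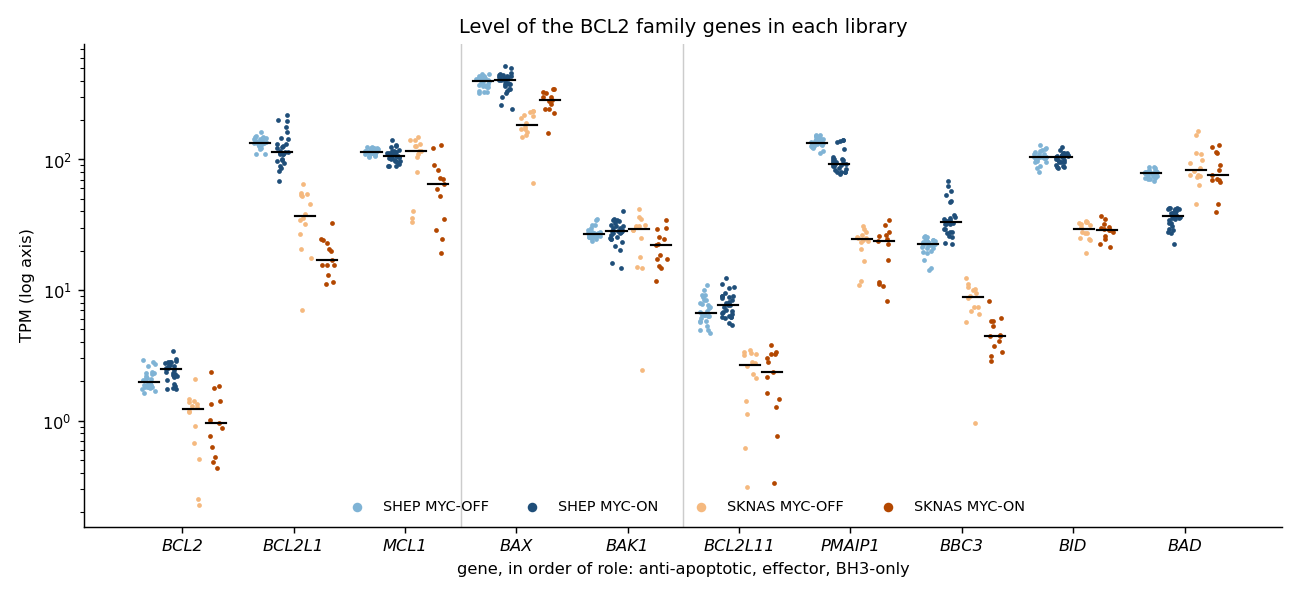
TPM of the 10 genes in every library (points, log axis) in the 4 groups, with the median of each group as a bar. BAX lies on top and BCL2 at the bottom in every group, BAD separates the SHEP MYC-OFF from the SHEP MYC-ON libraries, and the SKNAS points scatter more widely than those of SHEP.

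The first comparison asked how activation of N-MYC changed these mRNAs in SHEP. BAD, PMAIP1 and BCL2L1 were lower and BBC3 was higher in MYC-ON cells. A gene was called changed by limma on log2(TPM + 1), with time point as a factor, at an adjusted p of at most 0.05 and a difference of at least 0.15 on the log2 scale. Of the 10 members 1 was called higher and 3 lower, against 33% and 38.9% of all 14362 genes tested. These shares are near or under those of all genes and are no result about the members as a group. Their median difference was -0.01, and that of all genes -0.04.

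Among the anti-apoptotic genes in SHEP, BCL2L1 (chromosome 20, 31664452 to 31723989, minus strand) was 111, 135 and 162 TPM in MYC-OFF cells as the lowest, median and highest library, and 68.2, 114 and 219 TPM in MYC-ON cells. The MYC-ON range thus enclosed the MYC-OFF range, with 10 libraries below it and 4 above it. BCL2L1 was lower in 21 of 28 time-matched pairs and fell by 0.17 on the log2 scale (SE 0.0686, adjusted p = 0.0227). The call was lost without replicate 2 (-0.08, adjusted p = 0.561), after rescaling (-0.12, adjusted p = 0.112), and when the 2 series means served as the replicates (adjusted p = 0.213). ABALON, a noncoding RNA on the opposite strand, shares 41.3% of the exonic bases of BCL2L1 and averaged 5.07 TPM, and since no strand setting was stated for these libraries, reads of the shared stretch cannot be told apart.

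MCL1 (chromosome 1, 150560895 to 150579738, minus strand), the short-lived anti-apoptotic protein bound by NOXA, was 104, 115 and 125 TPM in SHEP MYC-OFF and 88.5, 106 and 140.2 TPM in SHEP MYC-ON. It was lower in 22 of 28 pairs, and the difference of -0.10 (SE 0.0335, adjusted p = 0.0062) passed the p but not the size threshold. BCL2 (chromosome 18, 63123346 to 63320128, minus strand), the founding member of the family, was 1.63, 1.97 and 2.9 TPM in MYC-OFF and 1.75, 2.47 and 3.42 TPM in MYC-ON cells. Its ranges overlapped, it was higher in 20 of 28 pairs, and its difference of 0.146 (SE 0.0414, adjusted p = 0.00157) lay just under the size threshold. BCL2 passed that threshold with a pseudocount of 0.1 (0.20), after rescaling (0.18), with the median as covariate (0.23), without replicate 1 (0.20), and to CT72 (0.15).

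Neither effector was called in SHEP over the whole time course. BAX (chromosome 19, 48954815 to 48961798, plus strand) was 323, 397 and 453 TPM in MYC-OFF and 244, 409 and 520.5 TPM in MYC-ON cells, with a log2 difference of 0.00 (95% interval -0.11 to 0.11, adjusted p = 0.976). BAK1 (chromosome 6, 33572547 to 33580293, minus strand) was 23.8, 26.8 and 34.8 TPM against 14.8, 28.6 and 40.2 TPM, with a difference of 0.00 (95% interval -0.11 to 0.10, adjusted p = 0.992). Without series 2 the BAK1 difference was 0.13 (adjusted p = 0.0055), past the p but not the size threshold. Without series 1 it had the opposite sign. For both genes the MYC-ON libraries spread wider than the MYC-OFF libraries, with SDs of 63.9 against 37.4 TPM for BAX and 5.65 against 2.64 TPM for BAK1.

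The largest difference was that of BAD (chromosome 11, 64269830 to 64284704, minus strand), the BH3-only protein that links survival-factor signaling to BCL2 and BCL-XL. It was 68.7, 78.2 and 87.4 TPM in SHEP MYC-OFF and 22.6, 37.2 and 42.7 TPM in SHEP MYC-ON. BAD was the only member whose ranges did not overlap between the conditions of a line, and it was lower in 28 of 28 pairs. The share of all genes without overlap was not computed, so this is no result about the members. It fell by 1.10 on the log2 scale (SE 0.046, adjusted p = 1.69e-25), the difference ranked 826 of 14362 genes by size, and both series showed it, with means of 80.001 and 39.7 TPM in series 1 and 76.03 and 32.7 TPM in series 2. Exons of GPR137 on the opposite strand share 23.7% of the exonic bases of BAD, and GPR137 averaged 35.97 TPM.

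BBC3 (chromosome 19, 47220822 to 47232766, minus strand), which encodes PUMA, was 14.3, 22.6 and 25.8 TPM in SHEP MYC-OFF and 22.4, 33.2 and 67.9 TPM in SHEP MYC-ON. Of the 28 MYC-ON libraries, 25 lay above every MYC-OFF library, and BBC3 was higher in 26 of 28 pairs (0.65, SE 0.0777, adjusted p = 3.12e-10). PMAIP1 (chromosome 18, 59899996 to 59904305, plus strand), which encodes the MCL1 antagonist NOXA, was 112, 134 and 155 TPM in MYC-OFF and 78.1, 93.2 and 141 TPM in MYC-ON cells. Here 23 MYC-ON libraries lay below every MYC-OFF library, and PMAIP1 was lower in 24 of 28 pairs (-0.47, SE 0.0563, adjusted p = 2.96e-10). The calls on BAD, BBC3 and PMAIP1 held under every alternative run for this comparison.

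BCL2L11 (chromosome 2, 111119378 to 111168444, plus strand), which encodes BIM, an activator of BAX and BAK, was 4.73, 6.67 and 11.003 TPM in SHEP MYC-OFF and 5.36, 7.69 and 12.5 TPM in SHEP MYC-ON. Its difference of 0.14 (SE 0.0691, adjusted p = 0.0636) missed the threshold, but passed it after rescaling (0.18, adjusted p = 0.0122), with the median as covariate (0.27, adjusted p = 0.00421) and to CT72 (0.17, adjusted p = 0.0307). The noncoding RNA MIR4435-2HG on the opposite strand shares 10.8% of its exonic bases and averaged 131 TPM. BID (chromosome 22, 17734138 to 17774770, minus strand), which connects death receptors to mitochondria once caspase-8 cleaves it, was 79.8, 104 and 129.7 TPM against 86.5, 105 and 125 TPM. All 28 MYC-ON libraries lay inside the MYC-OFF range for BID, and its 95% interval ran from -0.10 to 0.05.

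In SKNAS the same comparison gave lower BCL2L1, MCL1 and BBC3 and higher BAX in MYC-ON cells, so that only BCL2L1 was called in the same direction in both lines. Of the 10 members 1 was called higher and 3 lower, against 13.7% and 34.4% of all 13886 genes tested. The median of all genes was itself lower in SKNAS MYC-ON (-0.29), and that of the members was -0.13. Of the genes called, 28.5% were higher, a share that became 53.6% after rescaling and 52.0% with the library median as covariate. With 1 time series per condition, these p-values measure the spread between time points and not between cultures.

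In SKNAS, BCL2L1 was 7.01, 37.2 and 64.8 TPM in MYC-OFF and 11.1, 17.0 and 32.6 TPM in MYC-ON cells. All 13 MYC-ON libraries lay inside the wide MYC-OFF range, yet 12 of 13 pairs were lower (-0.89, SE 0.217, adjusted p = 0.00362). The call held with the covariate (-0.47), after rescaling (-0.53) and at medians of at least 3.3 (-1.13), and not at 3.8 (-0.85, adjusted p = 0.111), where 10 MYC-OFF and 3 MYC-ON libraries remained. The lowest value, 7.01 TPM, came from the CT56 library named above, which was the lowest MYC-OFF library for 8 of the 10 members, among them BAX (65.8 TPM), BAK1 (2.43 TPM) and BBC3 (0.955 TPM).

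MCL1 was 33.1, 116 and 147 TPM in SKNAS MYC-OFF cells and 19.1, 64.8 and 129 TPM in MYC-ON cells, with 10 of 13 pairs lower (-0.70, SE 0.249, adjusted p = 0.0314). Its level moved with the library median. MYC-OFF libraries of at least 3.8 averaged 126 ± 13.997 TPM of MCL1 (n = 10) and the others 47.5 ± 22.0 TPM (n = 4), and in MYC-ON cells the averages were 114 ± 20.6 TPM (n = 3) and 51.2 ± 22.8 TPM (n = 10). The call was kept after rescaling (-0.33, adjusted p = 0.042). With the median as covariate the difference was -0.09 (adjusted p = 0.448), and it was also not called at medians of at least 3.3 (-0.61, adjusted p = 0.0594), at 3.8 (-0.21, adjusted p = 0.767) or with no filter on low values (adjusted p = 0.0751). BCL2 was 0.227, 1.23 and 2.09 TPM in MYC-OFF and 0.438, 0.957 and 2.38 TPM in MYC-ON cells, with a difference of 0.06 (adjusted p = 0.766) that passed the threshold only with the covariate (0.41, adjusted p = 0.000187).

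BAX was 65.8, 185 and 234 TPM in SKNAS MYC-OFF cells and 160.0, 286 and 346 TPM in MYC-ON cells. It was higher in 13 of 13 pairs, and 11 MYC-ON libraries lay above every MYC-OFF library (0.63, SE 0.149, adjusted p = 0.00284). The call held with the covariate (0.61), after rescaling (1.00) and at medians of at least 3.3 (0.50), and not at 3.8 (0.27, adjusted p = 0.67). Among the MYC-ON libraries BAX was lower at medians of at least 3.8 (210.2 ± 44.2 TPM, n = 3) than under it (302 ± 34.4 TPM, n = 10). BAK1 was 2.43, 29.6 and 42.0 TPM against 11.7, 22.0 and 34.7 TPM, and its difference of -0.11 had a wide 95% interval of -0.61 to 0.39.

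BBC3 was 0.955, 8.88 and 12.3 TPM in SKNAS MYC-OFF cells and 2.88, 4.48 and 8.29 TPM in MYC-ON cells, opposite in direction to SHEP. It was lower in 12 of 13 pairs (-0.58, SE 0.19, adjusted p = 0.0215). The call was kept at medians of at least 3.3 (-0.68) and lost with the covariate (-0.44, adjusted p = 0.096), after rescaling (-0.24, adjusted p = 0.325) and at 3.8 (-0.86, adjusted p = 0.109), with the same direction each time.

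The other BH3-only genes were not called in SKNAS. BAD, which separated the conditions in SHEP, was 45.3, 83.8 and 164 TPM in MYC-OFF and 39.5, 76.1 and 129 TPM in MYC-ON cells (-0.15, 95% interval -0.52 to 0.23). It was called lower with the covariate (-0.45, adjusted p = 0.04) and had the opposite sign after rescaling (0.22, adjusted p = 0.535). PMAIP1 was 10.99, 24.5 and 30.9 TPM against 8.25, 23.8 and 34.5 TPM (-0.16, 95% interval -0.53 to 0.21). BCL2L11 was 0.31, 2.69 and 3.51 TPM against 0.334, 2.38 and 3.82 TPM (-0.01, 95% interval -0.44 to 0.43). BID was 19.1, 29.3 and 33.9 TPM against 21.3, 29.1 and 37.1 TPM (0.00, 95% interval -0.23 to 0.23), and its value was 0.36 after rescaling.

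Whether the response to N-MYC differed between the lines was tested with an interaction term, fitted to the 83 libraries together. Line and the experiment it was grown in cannot be told apart in this term. The term was called for 5 of the 10 members, 2 higher and 3 lower in SKNAS than in SHEP, against 13.4% and 38.1% of 14870 genes. The share of calls that were higher was 26.0%, and 51.0% after rescaling. BBC3 differed most (-1.23, SE 0.166, adjusted p = 9.46e-09), followed by BAD (0.95, SE 0.134, adjusted p = 2.86e-08), BCL2L1 (-0.72, SE 0.169, adjusted p = 0.000361), BAX (0.63, SE 0.122, adjusted p = 2.18e-05) and MCL1 (-0.59, SE 0.16, adjusted p = 0.00168). The MCL1 difference was lost with the covariate (-0.10, adjusted p = 0.331) and without replicate 1 of SHEP (-0.51, adjusted p = 0.116). At medians of at least 3.8 1 member was called higher, PMAIP1 (0.61, adjusted p = 0.049), and 1 lower, BBC3, while BAD (0.53, adjusted p = 0.0518) and BCL2L1 (-0.68, adjusted p = 0.0787) missed the threshold there. PMAIP1 missed the threshold in the main comparison (0.31, SE 0.142, adjusted p = 0.0611) but passed it after rescaling (0.58), with the covariate (0.61) and at 3.3 (0.49).

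**Figure D2:**
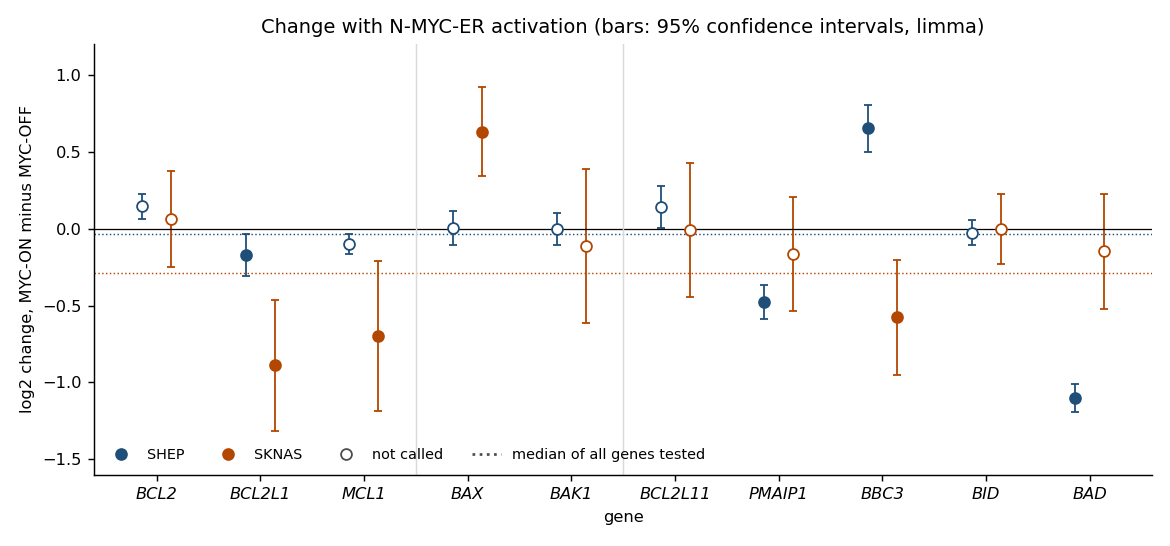
Log2 difference of TPM + 1, MYC-ON minus MYC-OFF, for the 10 genes in SHEP and SKNAS, with the 95% interval of limma as a line and called genes as filled points. BBC3 lies at 0.65 in SHEP and -0.58 in SKNAS, BAD at -1.10 and -0.15, BAX at 0.00 and 0.63, and the intervals of SKNAS are wider for all 10 genes.

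The time courses asked whether these levels drifted with CT. The study added ethanol or 4OHT 24 h before dexamethasone. Hours since dexamethasone, hours since 4OHT and hours in culture therefore rise together and cannot be told apart. In SHEP MYC-OFF BBC3 alone was called, rising by 0.15 per 24 h (adjusted p = 0.0313), so that 1 of 10 members rose and none fell, against 2.96% and 5.15% of 14264 genes, and the call was lost in each series taken alone. PMAIP1 (-0.11 per 24 h, adjusted p = 0.00174) and BID (0.10, adjusted p = 0.0396) passed the p but not the size threshold. In SHEP MYC-ON 4 members rose and 3 fell with time, against 17.1% and 30.6% of 14261 genes. The share of called genes that rose was 36.5% in MYC-OFF and 35.9% in MYC-ON cells, and 49.2% and 49.1% after rescaling.

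BCL2L1 had the steepest course. In SHEP MYC-ON it stood at 86.1 and 68.2 TPM at CT24 in series 1 and 2, below every SHEP MYC-OFF library (111 TPM or more), and reached 219 and 202 TPM at CT76, above the MYC-OFF maximum of 162 TPM. The rise was 0.50 per 24 h (SE 0.0493, adjusted p = 2.15e-09) and ranked 800 of 14261 genes, while the MYC-OFF slope was -0.03 (SE 0.0358). The difference between the slopes was 0.52 (SE 0.0632, adjusted p = 1.69e-09). The late levels differed between the series. In series 1 BCL2L1 was above the MYC-OFF library of the same hour from CT60 on, whereas in series 2 it was above it only at CT64 (145 against 136 TPM) and CT76, and at CT72 it stood at 131 against 136 TPM. With time points to CT72 alone, the rise in MYC-ON cells was 0.44 per 24 h (adjusted p = 5.93e-08) and the difference between the slopes 0.45.

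MCL1 rose more slowly in SHEP MYC-ON, by 0.16 per 24 h (SE 0.0338, adjusted p = 0.000155), from 116 and 103 TPM at CT24 to 140.2 and 113 TPM at CT76. PMAIP1 rose by 0.23 per 24 h (SE 0.0527, adjusted p = 0.000456), a rise that series 2 carried. In series 2 it went from 85.1 to 141 TPM, and in series 1 from 98.9 to 100.3 TPM. Without series 1 the slope of PMAIP1 was 0.42, and without series 2 it was 0.04 (adjusted p = 0.409). BBC3 rose by 0.28 per 24 h (SE 0.0888, adjusted p = 0.00874), and here series 1 carried the rise, from 32.3 to 67.9 TPM. In series 2 it stayed between 22.4 and 37.3 TPM to CT72 and stood at 62.8 TPM at CT76. The rise of BBC3 was not called with the median as covariate (0.27, adjusted p = 0.0805), and that of MCL1 without series 1 fell just short of the size threshold (0.1495, adjusted p = 0.0268).

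The effectors fell with time in SHEP MYC-ON. BAX fell by 0.20 per 24 h (SE 0.049, adjusted p = 0.000887) and BAK1 fell by 0.26 (SE 0.06, adjusted p = 0.000564). BAX went from 520.5 and 425 TPM at CT24 to 369 and 244 TPM at CT72 in series 1 and 2, and BAK1 in series 2 from 27.2 to 14.8 TPM. At CT76 BAX stood at 377 and 444 TPM, and BAK1 in series 2 at 29.7 TPM, both above CT24 in series 2. With time points to CT72 alone the slopes were -0.27 for BAX and -0.32 for BAK1. The BAX call was lost without series 1 (-0.22, adjusted p = 0.0545) and after rescaling, where the slope was just under the size threshold (-0.148, adjusted p = 0.0124). BCL2L11 fell by 0.21 per 24 h (SE 0.0666, adjusted p = 0.00928), a call lost without series 1 (-0.12, adjusted p = 0.28) and with the median as covariate (-0.10, adjusted p = 0.379). The slopes differed between the conditions, with a higher slope in MYC-ON for BCL2L1, MCL1 (0.17) and PMAIP1 (0.35) and a lower slope for BAX (-0.29), BAK1 (-0.18, adjusted p = 0.0481) and BID (-0.16), which made 3 of 10 in each direction against 14.5% and 24.5% of 14362 genes. After rescaling the differences of BAK1 (-0.14, adjusted p = 0.122) and BID (-0.12) were no longer called, and neither was called without series 2 (-0.055 and -0.13). The MCL1 difference was not called without series 1 (0.13, adjusted p = 0.0839).

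The last MYC-ON library of series 2 in SHEP, CT76, differed sharply from the CT72 library before it. The CT64, CT68 and CT72 libraries of that series had 24697, 24896 and 25484 genes above 0, and CT76 had 22562. The count at CT72 was the highest of any library. Which side of this break stands apart was not tested. Between CT72 and CT76 BBC3 went from 23.1 to 62.8 TPM, BAX from 244 to 444 TPM, BAK1 from 14.8 to 29.7 TPM, BCL2L1 from 131 to 202 TPM and BAD from 22.6 to 37.9 TPM. The shift in these members was toward the series 1 values of the same hour, which were 67.9 TPM for BBC3, 377 TPM for BAX and 219 TPM for BCL2L1. PMAIP1 (138 to 141 TPM, against 100.3 in series 1), MCL1 (114 to 113 TPM, against 140.2) and BID (87.2 to 87.7 TPM, against 113) stayed near their series 2 values. Without CT76 in either series, an alternative added after this was seen, the BBC3 slope was no longer called (0.14, adjusted p = 0.147), while the other 6 calls in SHEP MYC-ON were unchanged. Without series 1 altogether it was 0.04 (adjusted p = 0.828), and without series 2 it was 0.52.

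**Figure D3:**
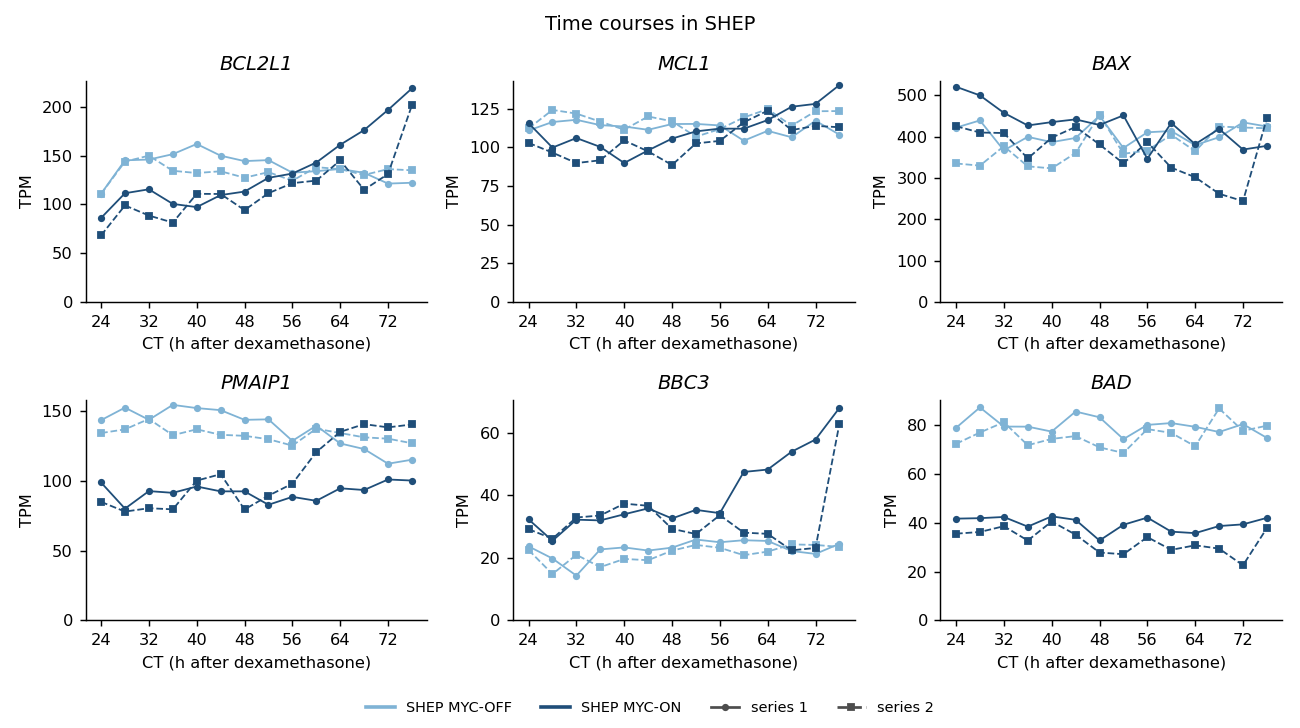
TPM of 6 of the genes (BCL2L1, MCL1, BAX, PMAIP1, BBC3 and BAD) against circadian time in hours in SHEP, with a line for each series and condition (solid for series 1, dashed for series 2). BCL2L1 climbs from 86.1 to 219 TPM in MYC-ON series 1, and in series 2 from 68.2 to 131 TPM at CT72 and 202 TPM at CT76, BAD stays below every MYC-OFF value throughout, and the CT76 point of MYC-ON series 2 jumps for BBC3, BAX and BCL2L1.

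In SKNAS no member changed with time by the threshold, in 1 series per condition. The slopes of BCL2L1 (-0.65 per 24 h, SE 0.261, adjusted p = 0.131) and MCL1 (-0.62, SE 0.242, adjusted p = 0.131) in MYC-OFF cells were larger than the SHEP slopes but had wide intervals, and among all 14119 genes limma called 0, although 5144 passed an unadjusted p of 0.05. Nor was a 24 h rhythm called for any member in any group. Over all genes limma called 9 and 2 as rhythmic in SHEP MYC-OFF and MYC-ON and 0 in both SKNAS groups, with 1400, 1247, 63 and 46 genes at an unadjusted p under 0.05. Of the members 1 in SHEP MYC-OFF had an unadjusted p under 0.05 (lowest p = 0.0263, adjusted p = 0.443), and the largest fitted amplitude in SHEP was 0.15 on the log2 scale.

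Between the lines, 7 of the 10 members were lower in SKNAS than in SHEP in MYC-OFF cells and none was higher, against 46.4% lower and 32.1% higher of 14926 genes. Each line was grown in its own time series, so line and the experiment it was grown in cannot be told apart. With 1 SKNAS series, the p-values measure the spread between libraries and not between cultures. PMAIP1 differed most: the SHEP median was 5.48 times the SKNAS median with no overlap of the libraries (-2.56, SE 0.0782, adjusted p = 6.34e-24). BCL2L1 (-1.96, 3.63 times) and BID (-1.84, 3.56 times) came next, and BBC3 (-1.40), BCL2L11 (-1.35), BAX (-1.13) and BCL2 (-0.61) followed. Of these 7 only BCL2 had overlapping ranges, a count for which the share over all genes was not computed. BAD (0.19, adjusted p = 0.072), MCL1 (-0.29, adjusted p = 0.0539) and BAK1 (-0.24, adjusted p = 0.185) were not called, and MCL1 was higher in SKNAS with the covariate (0.11, adjusted p = 0.0085, under the size threshold). The share of called genes that were higher in SKNAS was 40.9%, and 52.3% with the covariate.

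In MYC-ON cells 9 members were lower in SKNAS and BAD was higher, against 58.3% and 26% of 14620 genes. Line and experiment cannot be told apart here either. BCL2L1 (-2.61, SE 0.11, adjusted p = 6.8e-20) and BBC3 (-2.61, SE 0.118, adjusted p = 4.77e-19) differed most, with SHEP medians 6.72 and 7.3995 times those of SKNAS. BAD went the other way (1.14, SE 0.119, adjusted p = 4e-10), its SHEP median being 0.488 times that of SKNAS. MCL1 (-0.89) turned direction with the median as covariate (0.30, adjusted p = 0.00635) but stayed lower after rescaling (-0.39, adjusted p = 0.000423). BAX (-0.50) was 0.01 after rescaling but stayed lower with the covariate (-0.85, adjusted p = 3.16e-06). BAK1 (-0.38) was 0.11 after rescaling and -0.04 with the covariate. The direction for these 3 genes thus depended on the alternative. BAK1 was also not called without replicate 1 of SHEP (-0.22, adjusted p = 0.103). The share of called genes that were higher was 30.9%, and 47.4% after rescaling.

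The balance was described as sums of TPM over the anti-apoptotic, effector and BH3-only genes, with no test, since the members were chosen with results known. In SHEP the anti-apoptotic sum had a median of 255 TPM in MYC-OFF and 222 TPM in MYC-ON cells, the effector sum 423 and 444 TPM, and the BH3-only sum 348 and 280.0 TPM. In SKNAS the anti-apoptotic sum was 161 and 81.0 TPM, the effector sum 216 and 308 TPM, and the BH3-only sum 152 and 146 TPM. By these medians the anti-apoptotic and BH3-only sums were lower in MYC-ON cells of SHEP. Over all SKNAS libraries the anti-apoptotic sum was lower and the effector sum higher. At SKNAS library medians of at least 3.8, 10 MYC-OFF and 3 MYC-ON libraries remained. There the anti-apoptotic sum had medians of 173 and 156 TPM and the effector sum 216 and 252 TPM. These differences kept their direction but were smaller. The BH3-only sum there was 148 and 111 TPM. The part of the library median in the SKNAS sums was not tested.

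The ratio of anti-apoptotic to effector mRNA was 0.501, 0.609 and 0.743 in SHEP MYC-OFF and 0.371, 0.501 and 0.959 in SHEP MYC-ON as the lowest, median and highest library, lower in 17 of 28 pairs. The direction turned with time in both series. In series 1 the MYC-ON ratio was the lower one to CT52 (0.494 against 0.65). It was the higher one from CT56 (0.657 against 0.567) to CT76 (0.897 against 0.517). In series 2 it was lower to CT56 (0.558 against 0.605) and higher from CT60 (0.704 against 0.601). In SKNAS the ratio to effectors was 0.217, 0.702 and 1.02 in MYC-OFF and 0.107, 0.264 and 0.844 in MYC-ON, lower in 11 of 13 pairs. In SKNAS libraries with a median of at least 3.8 the medians were 0.841 (n = 10) and 0.564 (n = 3). The ranges overlapped in both lines. The ratio of anti-apoptotic to BH3-only mRNA had medians of 0.729 and 0.803 in SHEP, higher in 23 of 28 pairs, and of 1.03 and 0.61 in SKNAS, lower in 9 of 13 pairs. At library medians of at least 3.8 the direction turned, with 1.16 in MYC-OFF and 1.42 in MYC-ON cells of SKNAS. PMAIP1 over MCL1, the pair of NOXA and its target, had medians of 1.15 and 0.876 in SHEP (lower in 24 of 28 pairs) and 0.222 and 0.35 in SKNAS (higher in 12 of 13 pairs). At SKNAS library medians of at least 3.8 this ratio differed less, with 0.206 (n = 10) and 0.267 (n = 3).

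The make-up of the sums also differed between the lines. BCL2L1 was 53.3% of the anti-apoptotic sum in SHEP MYC-OFF by the median and MCL1 45.9%, whereas MCL1 was 72.7% in SKNAS MYC-OFF. BAX made up 93.4% of the effector sum in both SHEP groups, 86.0% in MYC-OFF and 92.9% in MYC-ON cells of SKNAS. Within the BH3-only sum the BAD share went from 22.5% to 12.9% and the BBC3 share from 6.63% to 12.1% in SHEP on N-MYC activation, while in SKNAS BAD was 55.3% and 54.9%.

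**Figure D4:**
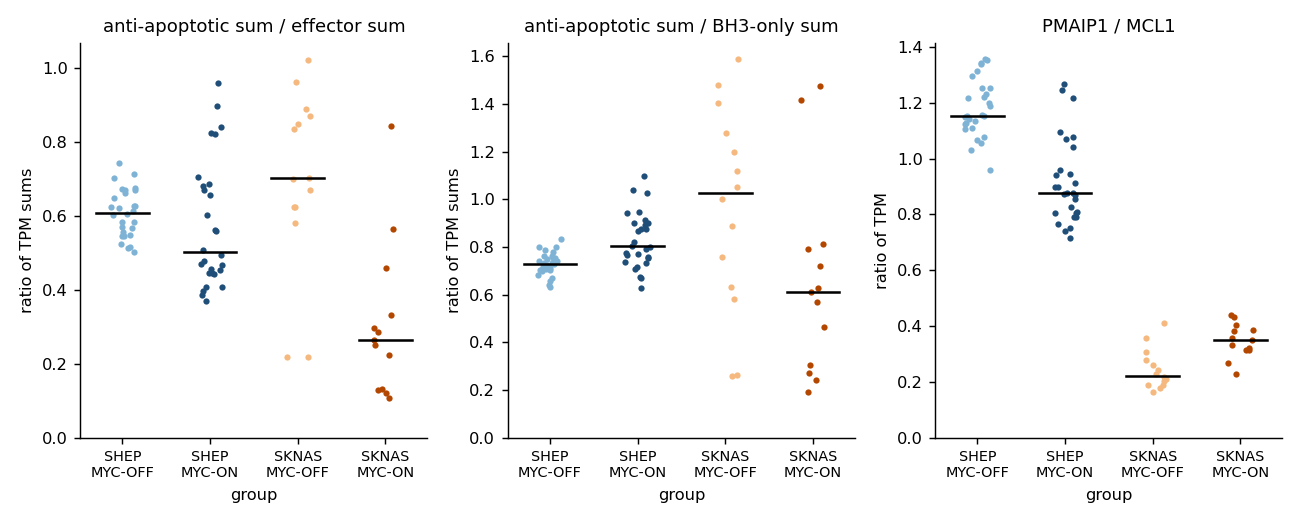
Ratios of TPM in each library (points) of the 4 groups, with the median as a bar, for the anti-apoptotic over the effector sum, the anti-apoptotic over the BH3-only sum, and PMAIP1 over MCL1. Median ratios to effectors are 0.609 and 0.501 in SHEP and 0.702 and 0.264 in SKNAS for MYC-OFF and MYC-ON, with overlapping ranges. The points pool all hours, and in SHEP this ratio is lower in MYC-ON at early hours and higher at late hours.

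The other genes of the pathway are given by lists, whose counts stand against the shares of all genes given above, 33% higher and 38.9% lower in SHEP and 13.7% and 34.4% in SKNAS, and are no result about a list. After rescaling, 5166 of 14362 genes were higher and 5139 lower in SHEP, and 3831 of 13886 higher and 3314 lower in SKNAS. With the library median as covariate, 3924 were higher and 3620 lower in SKNAS. Counts under these alternatives stand against these numbers. Of the 12 other BCL2 family genes, 8 could be tested in SHEP, where 1 was higher and 4 were lower in MYC-ON cells, and 7 in SKNAS, where 4 were lower. After rescaling 3 were higher and 3 lower in SHEP, and 2 higher and 3 lower in SKNAS. BMF, a BH3-only gene, fell most, from a median of 4.25 to 0.479 TPM in SHEP with no overlap (-1.78, adjusted p = 5.29e-24). In SKNAS its median went from 3.23 to 0.307 TPM (-1.30, adjusted p = 6.01e-05). BNIP3L, a mitophagy receptor, fell in both lines as well (-1.20 and -1.34). BCL2L2, which encodes the anti-apoptotic BCL-W, was lower in SHEP (-0.41), where some reads may belong to the readthrough transcript BCL2L2-PABPN1 (mean 11.5 TPM), and BCL2L12 was higher (0.20), while BCL2L13 (-0.64) and BNIP3 (-0.43) were lower in SKNAS. BCL2A1, BCL2L10, BIK and BCL2L14 were under the minimum of 1 TPM in both comparisons, and HRK in SKNAS.

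Downstream of the pores, 4 of 10 apoptosome and caspase genes were higher and 6 lower in SHEP, and 1 was higher and 4 lower in SKNAS. In SKNAS this became 4 higher and 3 lower both after rescaling and with the library median as covariate. APAF1, the scaffold of the apoptosome, was lower in both lines (-0.72 and -1.06), as were the caspases CASP6 (-0.71 and -1.21) and CASP2 (-0.56 and -0.93). PARP1, a caspase substrate, was higher in SHEP (0.61). The 1 higher gene in SKNAS, named after its value was seen, was CYCS, cytochrome c (0.43, and 0.32 in SHEP). Of the death receptor genes, 7 of 9 tested were lower in SHEP and 6 of 8 in SKNAS, and none was higher, led by RIPK1 (-1.21 and -0.80), TRADD (-0.93 and -0.53), CASP8 (-0.68 and -1.02), FAS (-0.49 and -0.87) and TNFRSF1A (-0.34 and -0.92). After rescaling 4 of 8 were lower in SKNAS.

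Among the inhibitors of apoptosis (IAPs) and their antagonists, 3 of 7 were higher and 2 lower in SHEP, and 1 was higher and 4 lower in SKNAS. BIRC2 was lower in both lines (-0.35 and -0.96) and BIRC5, survivin, higher in both (0.24 and 0.50), XIAP was lower in SHEP (-0.72), HTRA2 higher in SHEP (0.30) and BIRC6 lower in SKNAS (-0.62). BIRC3 was called in opposite directions (0.19 and -1.72). In SHEP, however, it was higher in only 17 of 28 pairs, and 19 of the MYC-ON libraries lay inside the MYC-OFF range. Of 7 channel and membrane partners, 4 were higher and 3 lower in SHEP, and 1 was higher and 1 lower in SKNAS (3 and 1 after rescaling), with MTCH2, the mitochondrial receptor of BID, higher in both (0.74 and 0.65), TMBIM6 lower in both (-0.27 and -0.92), and VDAC1 (0.79) and VDAC3 (0.24) higher in SHEP.

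Of the known transcriptional regulators of the family, 3 of 9 tested were higher and 5 lower in SHEP, and 2 of 7 were higher and 2 lower in SKNAS. TP73 (-1.03) and E2F1 (-0.72) were lower in SHEP, FOXO3, a known inducer of BCL2L11, was lower in both lines (-0.53 and -0.85), and the stress factors ATF4 (0.72 and 0.44) and DDIT3 (0.71 and 0.78) were higher in both. Of 6 factors known to act on the turnover of MCL1 or BIM, in either direction, FBXW7 was higher (0.46) in SHEP. USP9X (-0.38) and BTRC (-0.35) were lower in SHEP, and USP9X was lower in SKNAS (-1.05). At library medians of at least 3.8, BMF (-1.42) and BIRC3 (-1.69) were the only genes still called of the largest SKNAS changes of each list, up to 4 a list.

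**Figure D5:**
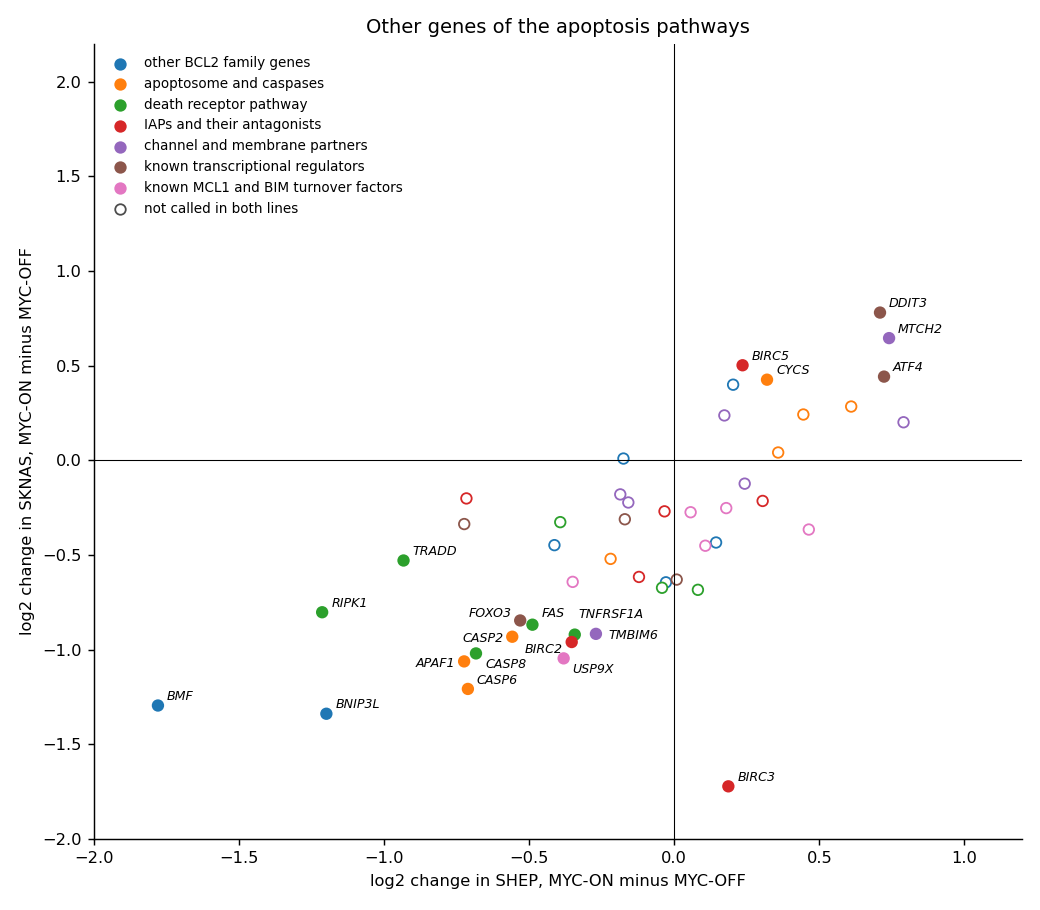
Log2 difference, MYC-ON minus MYC-OFF, in SHEP (horizontal) and SKNAS (vertical) for other apoptosis genes tested in both lines, colored by list, filled where called in both lines. BMF, BNIP3L and RIPK1 lie at the lower left, ATF4, DDIT3 and MTCH2 at the upper right, and BIRC3 alone is filled with opposite signs.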

How the data were processed

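The authors sequenced poly-A RNA as paired 150-base reads, quantified it with Salmon 1.3.0 against GRCh38 transcripts and deposited gene-level TPM (transcripts per 1000000) summed from transcripts. The strand setting and read totals of single libraries are not given in the sources used here. All 60237 genes and 83 libraries of the table were used, each library assigned to its group by its label.

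Values were log2(TPM + 1) and genes with a mean of at least 1 TPM in the libraries compared were tested with limma 3.58.1 (R 4.3.3), two-sided, with Benjamini-Hochberg adjustment over all genes tested. Condition comparisons had CT as a factor, slopes were fitted per 24 h, rhythms as a 24 h cosine, and a call needed an adjusted p of at most 0.05 and, except for rhythms, at least 0.15 on the log2 scale. The log2 differences understate changes of genes near 1 TPM. Libraries are time points of 2 series in SHEP, which the study describes as biological replicates, and of 1 series in SKNAS, so p-values measure the spread between libraries of few cultures. The fits were also run on simulated data with independent noise in each gene and library. Those data had no shared effect of a culture or series, so they could not test how few cultures affect the p-values. All 10 members are named, and of every other list the called genes with the largest change, up to 4 per list and line, plus genes called in opposite directions. A few genes of these lists are counted but not reported here by name, and were left out of the plot of the lists. The members and lists were chosen with earlier results of these data known. Promoter windows came from RefSeq (GRCh38.p14), gene positions from the GRCh38 annotation. Alternatives were a pseudocount of 0.1, no filter or a minimum mean of 5 TPM, median-of-ratios rescaling, the library median as a covariate, an intensity trend, leaving out each SHEP series, series as a replicate block, series means as replicates, SKNAS libraries with a median log2(TPM + 1) of at least 3.3 and, added after the data were seen, 3.8, and SHEP time points to CT72. Figures were drawn with matplotlib 3.10.9.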

Additional observations from a re-analysis of the deposited data

Results flagged for a closer look

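The effect of N-MYC activation differed between SKNAS and SHEP for 7655 of 14870 genes by the interaction term of limma. Given here are 5 members and 2 other named genes, as the SKNAS effect minus the SHEP effect on the log2 scale. Of the members these were BCL2L1 (-0.72), MCL1 (-0.59), BAX (0.63), BBC3 (-1.23) and BAD (0.95). The MCL1 difference was lost with the library median as covariate (-0.10, adjusted p = 0.331). BBC3 was higher in 26 of 28 pairs in SHEP and lower in 12 of 13 pairs in SKNAS. BAD was lower in 28 of 28 pairs in SHEP and in 8 of 13 pairs in SKNAS, and BAX was higher in 18 of 28 and 13 of 13 pairs. Among the other genes, BIRC3, an inhibitor of apoptosis, differed by -1.91 and HAND2, a transcription factor of adrenergic neuroblastoma, by -1.71, both being called higher in SHEP and lower in SKNAS. BIRC3 was higher in only 17 of 28 pairs in SHEP and lower in 13 of 13 in SKNAS. For HAND2 these counts were 28 of 28 and 13 of 13. The SKNAS library medians differed between the conditions, and their part in these differences was examined only through the alternatives given in the text.

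In SHEP the change over 24 h differed between MYC-ON and MYC-OFF cells for 6 members, given as the MYC-ON slope minus the MYC-OFF slope: BCL2L1 (0.52), PMAIP1 (0.35), MCL1 (0.17), BID (-0.16), BAK1 (-0.18) and BAX (-0.29). Each rests on 2 series, and the MYC-ON library of series 2 at CT76 stood apart from the one before it.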

How the results depend on the processing

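The alternatives changed the count of members called in a direction, or turned the sign of a member, mostly in SKNAS. The counts over all genes moved under the alternatives too, so these counts are no result about the members. In SHEP MYC-ON against MYC-OFF the members called higher became 2 with a pseudocount of 0.1, and 3 after rescaling, with the covariate and to CT72, BCL2 and BCL2L11 being those added. BAK1 turned to 0.044 after rescaling and 0.011 with the covariate, BID turned to 0.020 after rescaling, and leaving out 1 series gave -0.13 to 0.13 for BAK1 and -0.063 to 0.066 for BAX, none of them called. The BAK1 value of 0.13, without series 2, passed the p threshold of limma (adjusted p = 0.0055) but not the size threshold. In SKNAS MYC-ON against MYC-OFF, BAK1 (0.26), BCL2L11 (0.26), PMAIP1 (0.19), BID (0.36) and BAD (0.22) turned after rescaling, and BAK1 (0.34), BCL2L11 (0.37), PMAIP1 (0.22) and BID (0.063) with the covariate, where the members called higher became 2. BCL2L11 turned to 1.0e-04 with a pseudocount of 0.1, PMAIP1 and BID turned to 0.012 and 0.017 at medians of at least 3.3, and BCL2L11 (0.19), PMAIP1 (0.13) and BID (0.13) turned at 3.8, where 0 members were called in either direction by limma.

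For the difference between the lines in the MYC effect, 4 members were higher after rescaling and with the covariate, and 1 was higher and 1 lower at medians of at least 3.8. Of all 14870 genes, 3798 were higher after rescaling and 3771 with the covariate. At 3.8, 1012 of 14880 genes were higher and 1193 lower. BCL2 turned to 0.081, BAK1 to 0.18 and BCL2L11 to 0.064 after rescaling, to 0.22, 0.26 and 0.19 with the covariate, BCL2 and BCL2L11 to 0.29 and 0.055 at 3.8, and BAK1 ran from -0.24 to 0.019 when 1 series was left out. For SKNAS against SHEP in MYC-OFF, 1 member was higher after rescaling and at 3.8, and MCL1 and BAK1 turned to 0.11 and 0.16 with the covariate, 0.077 and 0.12 at 3.3, and 0.13 and 0.20 at 3.8. In MYC-ON, 2 were higher with the covariate, MCL1 turned to 0.30 there and to 0.17 at 3.8, and BAX and BAK1 turned to 0.013 and 0.11 after rescaling. The rise of BBC3 in SHEP MYC-OFF left 0 members called with the covariate and to CT72, and for the difference of the slopes 1 member was lower after rescaling.

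Leaving out 1 SHEP series at a time gave 1 to 2 members higher and 2 to 4 lower in SHEP, 2 higher and 2 to 3 lower for the difference between the lines, 0 higher and 7 lower, and 1 higher and 8 to 9 lower, between the lines in MYC-OFF and MYC-ON. For slopes it gave 0 higher and 0 to 1 lower in SHEP MYC-OFF, 2 to 3 higher and 1 to 4 lower in MYC-ON, and 2 to 4 higher and 1 to 3 lower for their difference. The cause of these changes was not tested. With series as a replicate block in SHEP, 4765 genes were higher and 5605 lower, and the same 4 members were called (BAD -1.10, BCL2L1 -0.17 at an adjusted p of 0.0177). The deviations of series 1 from the group means correlated between the conditions (r = 0.489 over 14362 genes), but with 2 series this shows only that they share a number.

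The depth of single libraries is unknown, so differences of members near 1 TPM, BCL2 and BCL2L11 in SKNAS above all, carry an unknown counting error. SKNAS has 1 series per condition, and its MYC-ON libraries have the lower medians, so condition and library composition cannot be fully told apart there. Of the 180 summary counts and balances under alternatives, 156 were classed as the same and 24 as moved. A count can stay the same while the genes in it change. Of the values of single members, 908 were classed as the same, 84 as weaker, 17 as stronger and 39 as reversed.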

Other observations

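MYC, the endogenous relative of the activated fusion, was lower in MYC-ON cells of both lines with no overlap of the libraries, with medians of 11.3 and 2.05 TPM in SHEP (-1.87, SE 0.1, adjusted p = 9.33e-21 by limma) and of 16.1 and 1.6 TPM in SKNAS (-2.53, SE 0.189, adjusted p = 8.19e-08). This decrease accompanied N-MYC activation in every time-matched pair, 28 in SHEP and 13 in SKNAS. Its bearing on apoptosis was not tested.

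HRK, a BH3-only gene of neurons, was expressed in SHEP at a low level, with medians of 1.13 TPM in MYC-OFF and 1.27 TPM in MYC-ON cells, and was at most 0.146 TPM in SKNAS. BIK, another BH3-only gene, had medians of 1.54 and 0.331 TPM in SKNAS MYC-OFF and MYC-ON and of 0.197 and 0.15 TPM in SHEP. Neither gene passed the minimum mean in SKNAS, so their values there carry no test.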
